A study of Mus musculus with 3 samples.

Results

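Immediate early genes were followed across the cell classes of lavage fluid from mice with bleomycin-injured lungs. The set held 10 of the 32286 genes measured, taken by symbol: the transcription factors Egr1, Egr2, Egr3, Fos, Jun and Junb, the early response proteins Ier2 and Ier3, the phosphatase Dusp1 and the RNA-binding protein Zfp36. All 10 were present. Wild-type mice were labelled DMSO (WT DMSO) or given the small-molecule kinase inhibitor GW5074 (WT GW5074). Clec7a knockout mice were labelled DMSO (KO DMSO). All groups received bleomycin through the airway. Clec7a encodes the beta-glucan receptor Dectin-1. On day 14 the lavage of each group was pooled, cells positive for CD11b or CD11c were taken by flow sorting, and 1 droplet library of 3′ ends was sequenced per group. Strain, age, the number of mice, and the dose and timing of GW5074 are not given in the sources used here, nor is what else the WT GW5074 mice received. Since each group is 1 pool, a difference between groups cannot be told apart from one between pools or library runs, and no test between groups was possible.

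Immediate early genes are transcribed within minutes of a stimulus without new protein synthesis. Growth factor and pattern receptors reach them through the MEK and ERK kinases, which activate ternary complex factors at serum response elements (CArG boxes), and through CREB at cyclic AMP response elements. Many then limit the response: Dusp1 removes phosphate from MAP kinases, and Zfp36 (tristetraprolin) speeds the decay of cytokine mRNAs. Sorting and warming of cells also induce them.

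Promoters were examined to show which of these elements stand directly before genes of the set, whether or not their levels differed between libraries. RefSeq's promoter table (GRCm38.p6) held 7 of the 10 genes, all but Egr1, Egr3 and Ier2, and the 200 bases before the start overlapped no annotated exon for 4 of them: Egr2, Fos, Junb and Jun. The first 3 are printed 5′ to 3′ on the gene's strand, with motif matches in capitals. Their differences between KO DMSO and WT DMSO, described further on, held under most settings in macrophages gated as resident alveolar. In those gated as monocyte-derived, only the difference of Egr2 passed the 1.5-fold rule.
Egr2, chr10:67537669-67537868, plus strand: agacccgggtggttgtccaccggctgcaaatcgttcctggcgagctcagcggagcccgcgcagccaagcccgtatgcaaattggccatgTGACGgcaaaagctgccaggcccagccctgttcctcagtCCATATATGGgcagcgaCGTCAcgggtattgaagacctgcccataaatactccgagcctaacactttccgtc
Fos, chr12:85473690-85473889, plus strand: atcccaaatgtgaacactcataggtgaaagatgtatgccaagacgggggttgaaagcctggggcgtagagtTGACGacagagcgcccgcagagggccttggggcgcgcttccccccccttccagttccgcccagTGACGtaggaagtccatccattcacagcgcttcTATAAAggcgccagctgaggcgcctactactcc
Junb, chr8:84978749-84978948, minus strand: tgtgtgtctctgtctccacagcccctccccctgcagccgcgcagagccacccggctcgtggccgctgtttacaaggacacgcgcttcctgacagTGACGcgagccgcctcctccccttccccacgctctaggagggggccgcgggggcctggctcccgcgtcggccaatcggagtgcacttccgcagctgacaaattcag
The letters TGACG, the core of a cyclic AMP response element, were found on either strand in 3 of the 4 promoters, against 15.7% of 32851 promoters of the same length. Egr2 held them 111 to 107 bases before the start and, on the other strand, 55 to 51 bases before it. Fos held them 129 to 125 and 66 to 62 bases before the start, and Junb 106 to 102 bases before it. The start used for Junb lay 30 bases from the one in the GENCODE annotation, while those of Egr2, Fos and Jun were the same in both. A CArG box, matched by name and present in 1.18% of promoters, lay 72 to 63 bases before the start of Egr2, alone of the 4. TATAAA, in 9.96% of promoters, lay 33 to 28 bases before the start of Fos, alone of the 4. The Jun window at chr4:95052223-95052422 held none of the motifs searched on either strand. None of the 4 windows held the full TGACGTCA (1.47% of promoters), the AP-1 letters TGANTCA (5.48%), the EGR letters GCGNGGGCG (4.28%) or an NF-kB site by name (6.07%). TGACG is contained in TGACGTCA, so those searches overlap. A match is a description of letters, and a lack of one covers only this window.

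The files hold 13504, 17809 and 11678 barcodes for WT DMSO, WT GW5074 and KO DMSO, and 13454, 17792 and 11642 passed the cell filters. Library totals ran from 34859676 to 45462817 unique molecular identifiers (UMIs, each a counted molecule), the median cell held 2276 to 2937, and the median mitochondrial share was 1.41% to 2.34%. Between 1.53% and 1.73% of a library's barcodes also occurred in another library. Each cell was placed in a class by its markers, and class names below mean marker-gated, X-like cells. Classes of at least 100 cells in every library were resident-like alveolar macrophages (869, 2678 and 2538 cells), monocyte-derived-like macrophages (1812, 5405 and 2848), neutrophil-like cells (3134, 148 and 219), type 1 conventional dendritic-like cells (cDC1-like; 659, 966 and 653), type 2 conventional dendritic-like cells (cDC2-like; 157, 162 and 135), migratory dendritic-like cells (3034, 2702 and 1737) and T-like cells (348, 288 and 297). Between 22.2% and 29.1% of cells carried no single programme and stayed out of every class. The gate is a range of a score: 403, 1114 and 896 resident-like cells and 682, 1670 and 926 monocyte-derived-like cells lay within 5 percentage points of its edge. In resident-like macrophages all 12 markers measured of their own list were above 20 CPM in WT DMSO. Clec7a was at 853 and 899 CPM in the resident-like macrophages of the wild-type libraries and at 12.7 CPM in KO DMSO, as labelled. Levels are CPM, the UMIs of a gene scaled to the total of the summed class, and since 3′ ends are counted once per molecule they can be set side by side between genes without a length correction. Intervals are exact 95% intervals and cover counting error only.

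Neutrophil-like cells carried the highest level in 29 of the 30 pairs of gene and library, over the 7 classes. In 24 of these the interval did not overlap that of the next class. The exception was Jun in WT GW5074, at 313 CPM in cDC2-like and 268 CPM in neutrophil-like cells, with overlapping intervals. These levels are shares of the UMIs of a class, and neutrophil-like cells held few UMIs. The median was 665, 659.5 and 615 UMIs per neutrophil-like cell, against 4434, 2545 and 3609 per cDC1-like cell. A higher level in CPM therefore does not mean more UMIs of these genes per cell. Summed over the 10 genes, neutrophil-like cells held 6359, 3592 and 6423 CPM in WT DMSO, WT GW5074 and KO DMSO. The sum was 1747, 1690 and 1774 CPM in cDC1-like and 1776, 1826 and 1666 CPM in cDC2-like cells, where the libraries lay close together. Migratory dendritic-like cells held 1151, 974 and 877 CPM, and T-like cells 1017, 737 and 541 CPM. Monocyte-derived-like macrophages held 1167, 820 and 956 CPM, and resident-like macrophages, with 719, 556 and 634 CPM, stood lowest in WT DMSO and WT GW5074, while T-like cells did in KO DMSO. Of the 30 gene and library pairs, 26 were higher in monocyte-derived-like than in resident-like macrophages.

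**Figure D1:**
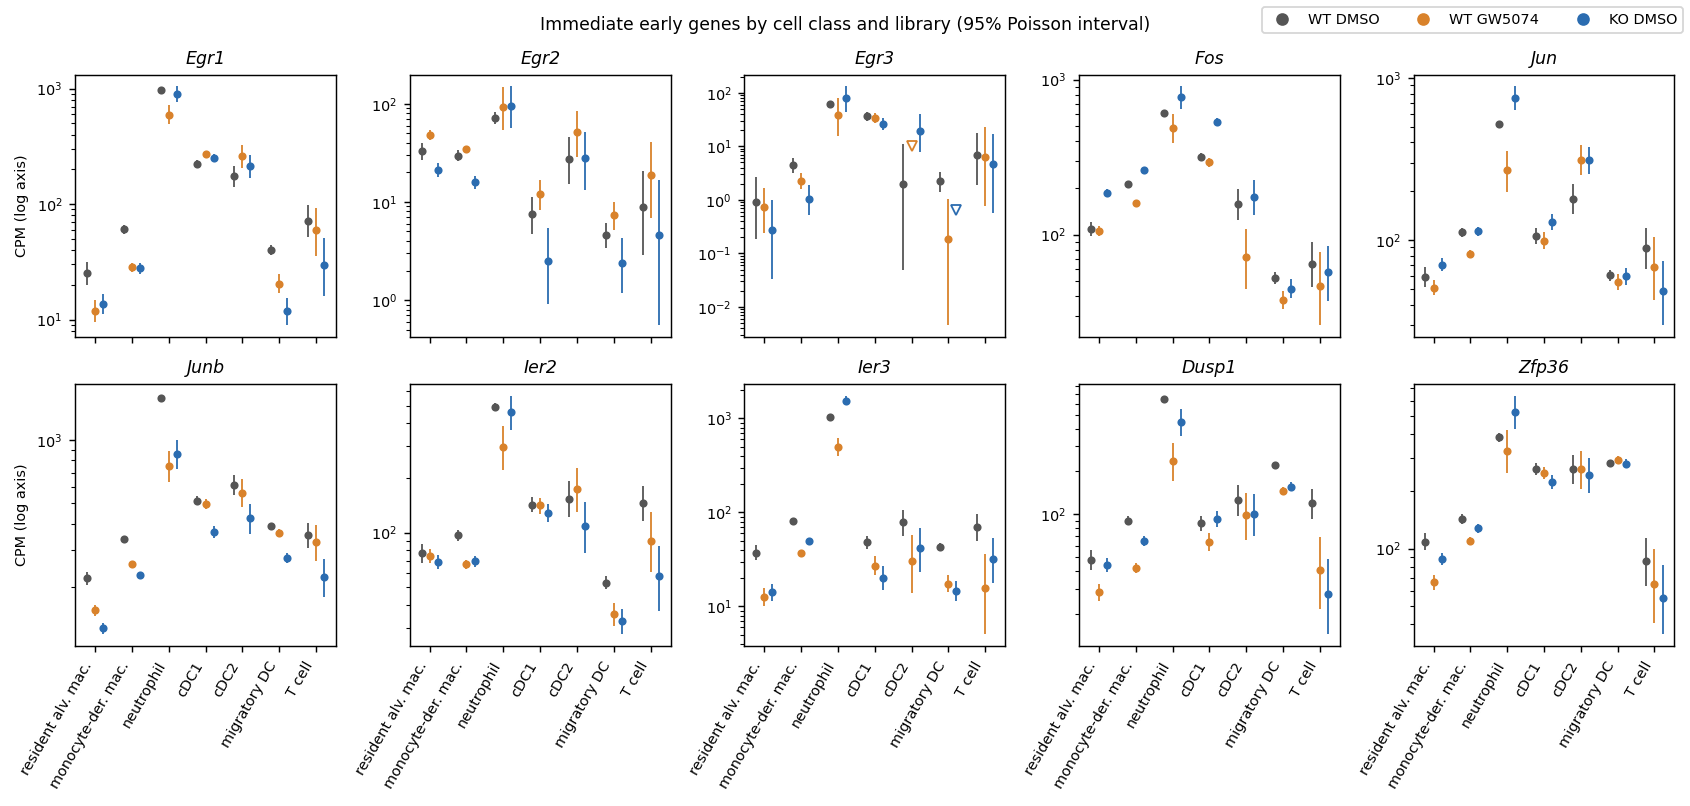
Level of each gene (CPM of the class sum, log axis) in 7 cell classes, with points coloured by library and bars for 95% Poisson intervals. An open triangle marks a class with no UMI, drawn at 3 counts. Neutrophil-like cells are at the top of every panel except for Jun in WT GW5074.

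The genes differed in which class came after neutrophil-like cells. Egr1, a zinc-finger factor that ERK signalling induces, was next highest in cDC1-like cells, at 224, 270 and 251 CPM, and low in resident-like macrophages, at 25.2, 11.9 and 13.6 CPM. Egr2, a related factor that macrophages also express steadily, was at 32.8, 48.4 and 21.1 CPM in resident-like macrophages but at 7.48, 11.9 and 2.51 CPM in cDC1-like cells. Egr3, the third of the family measured, was at 36.7, 33.7 and 25.97 CPM in cDC1-like cells and rested on 3, 5 and 2 UMIs in resident-like macrophages, too few to compare there. Egr1 and Egr3 thus shared their first 2 classes, neutrophil-like and cDC1-like cells, in all 3 libraries, though for Egr3 the intervals of these classes overlapped in WT GW5074. Egr2 did not share the second.

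Fos, Jun and Junb, which pair to form the AP-1 factor, were also unequal between classes. Fos was next highest in cDC1-like cells, at 316, 293 and 535 CPM, and lowest in migratory dendritic-like cells, at 52.7, 38.0 and 44.9 CPM. Junb was the member with the highest level in resident-like macrophages of the wild-type libraries, at 221 and 156 CPM, and Fos was in KO DMSO, at 186 CPM. Jun was at 179, 313 and 311 CPM in cDC2-like cells and below 130 CPM in cDC1-like cells and both macrophage classes. Dusp1 and Zfp36, which act on MAP kinases and on mRNA, were next highest in migratory dendritic-like cells, at 223, 146 and 156 CPM and at 283, 293 and 280 CPM (279.9 in KO DMSO). Ier3, an early response gene linked to survival, stood far apart in neutrophil-like cells, at 1025, 498 and 1549 CPM, against 80.2, 37.0 and 49.6 CPM in monocyte-derived-like macrophages. Ier2, a nuclear early response protein, reached 492, 296 and 460 CPM in neutrophil-like cells (459.94 in KO DMSO) and was at 32.5 to 174 CPM in the other 6 classes.

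At equal depth per cell, the genes were detected together mainly in neutrophil-like cells. For this, each cell was thinned to 500 UMIs, which leaves out more UMIs of the deeper classes. After thinning, 52.0%, 30.4% and 48.9% of neutrophil-like cells in WT DMSO, WT GW5074 and KO DMSO held UMIs of at least 3 of the 10 genes. The same share was 5.46%, 4.87% and 4.59% in cDC1-like cells, 2.81%, 1.39% and 1.65% in monocyte-derived-like macrophages and 0.345%, 0.299% and 0.236% in resident-like macrophages. No UMI of any of the 10 was found in 7.53%, 15.5% and 10.0% of neutrophil-like cells and in 68.9%, 75.9% and 72.1% of resident-like macrophages. No class is known to lack these genes, so the share due to free RNA has no negative class here.

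**Figure D2:**
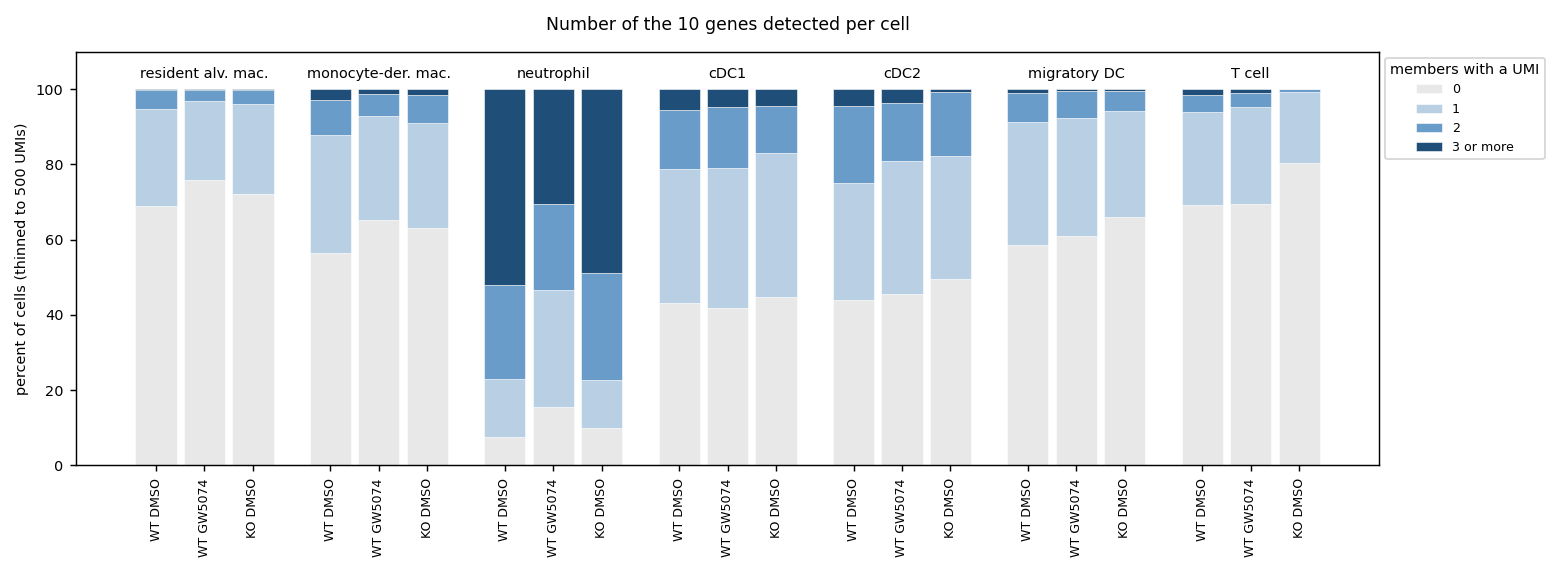
Share of cells (percent) with UMIs of none, 1, 2 or at least 3 of the 10 genes after thinning each cell to 500 UMIs, by class and library. At least 3 genes were found in 52.0% of neutrophil-like cells of WT DMSO and in 0.345% of its resident-like macrophages.

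WT GW5074 was compared with WT DMSO first in macrophages. A gene was counted as higher or lower where its levels differed by at least 1.5-fold and the interval of the ratio left out 1. A gene entered a comparison if it reached 20 CPM in either library and had 50 UMIs in the pair. This passes over Egr3, which lay under that minimum in both macrophage classes. In resident-like macrophages, Egr1, Ier3, Dusp1 and Zfp36 were lower in WT GW5074 and none was higher, 4 and 0 of 9. Over all 6584 genes entered, 0.683% were lower and 1.25% higher, with a median log2 ratio of 0.00 against -0.50 for the 9. In monocyte-derived-like macrophages, Egr1, Ier3 and Dusp1 were lower and none was higher, 3 and 0 of 9, where 0.799% of all genes were lower and 0.298% higher. The median log2 ratio there was -0.45 for the 9 and -0.02 over all genes.

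Egr1 in monocyte-derived-like macrophages was at 60.6 CPM in WT DMSO and 28.5 CPM in WT GW5074, a log2 ratio of -1.09 (interval -1.27 to -0.90). Ier3 was at 80.2 and 37.0 CPM, with a log2 ratio of -1.12 (-1.28 to -0.96). Dusp1 was at 89.98 and 41.8 CPM, with a log2 ratio of -1.11 (-1.26 to -0.96). All 3 were about as far apart, and KO DMSO lay near WT GW5074 for Egr1, at 27.8 CPM, but between both wild-type libraries for Dusp1, at 64.7 CPM. In resident-like macrophages Ier3 was at 37.4 and 12.7 CPM, with a log2 ratio of -1.56 (-1.98 to -1.15), on 122 and 87 UMIs. Dusp1 was at 47.6 and 28.3 CPM (-0.75, -1.06 to -0.44), and Zfp36 at 109 and 66.7 CPM (-0.71, -0.91 to -0.50). Egr2 did not share this direction: it was at 32.8 and 48.4 CPM in resident-like macrophages, a log2 ratio of 0.56 (0.24 to 0.89), just under the 1.5-fold threshold.

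**Figure D3:**
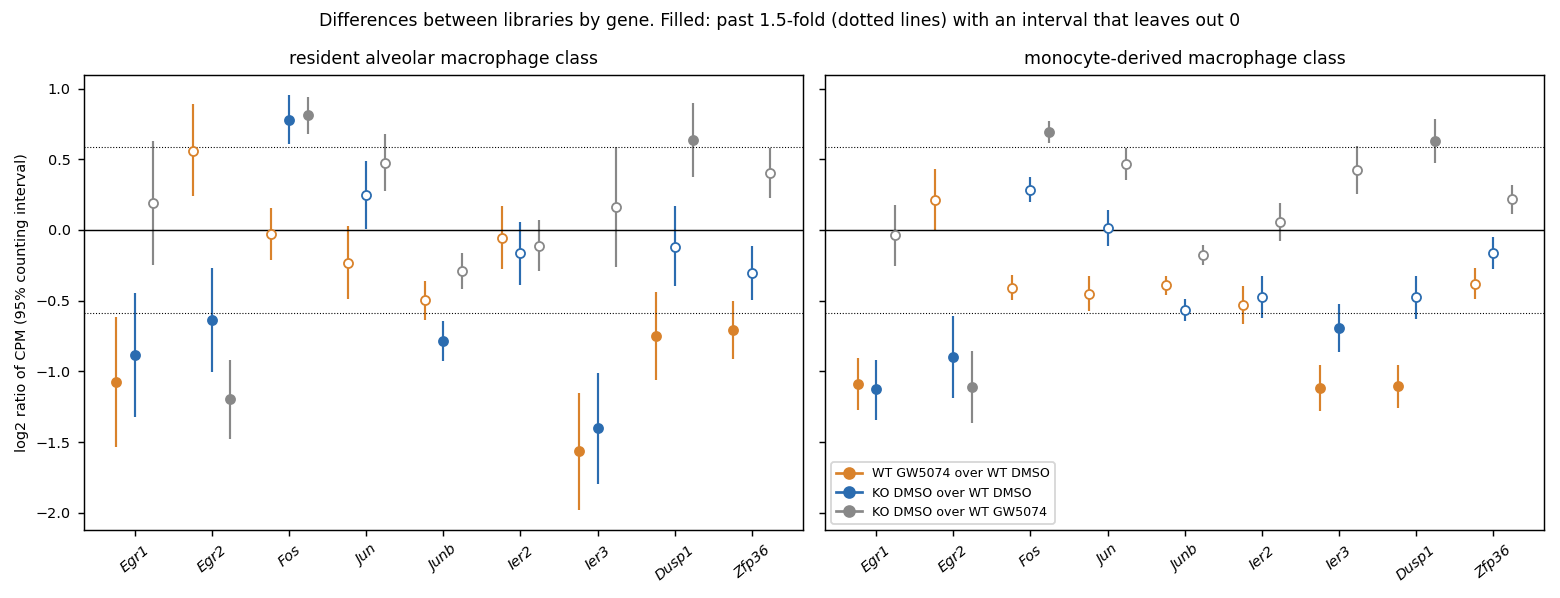
Log2 ratio of CPM between libraries for 9 genes (Egr3 left out, too few UMIs) in the 2 macrophage classes, coloured by comparison, with 95% counting intervals. Filled points are past 1.5-fold (dotted lines) with an interval that leaves out 0. Egr1, Ier3 and Dusp1 lie below 0 for WT GW5074 over WT DMSO in both classes, and Fos lies above 0 for KO DMSO over WT DMSO.

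Levels of neutrophil markers in the macrophage classes also differed between libraries. S100a8, the most abundant neutrophil transcript among the markers, was at 1209 CPM in the monocyte-derived-like macrophages of WT DMSO and near 220.4 and 220.6 CPM in those of WT GW5074 and KO DMSO. In resident-like macrophages it was at 491, 175 and 238 CPM. The 12 neutrophil markers summed to 2053, 367 and 340.2 CPM in monocyte-derived-like and to 771, 259 and 321 CPM in resident-like macrophages. S100a9, which neutrophils express together with S100a8, was at 614, 60.04 and 37.7 CPM in monocyte-derived-like and at 174, 17.9 and 11.99 CPM in resident-like macrophages, so it stood further below its WT DMSO level in both other libraries than S100a8 did.

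The neutrophil level of each member, scaled by its ratio to a marker in neutrophil-like cells of the same library, was set against the measured level. Scaled to S100a8, that of Egr1 came to 73.0%, 37.6% and 37.1% of the Egr1 measured in monocyte-derived-like macrophages, and that of Ier3 to 58.2%, 24.2% and 35.8%. For Dusp1 the scaled share was 33.0%, 10.1% and 7.87%, and for Egr2 11.01%, 4.86% and 6.84%. Scaled to S100a9, the share was 59.0%, 16.8% and 11.2% for Egr1, 47.1%, 10.8% and 10.8% for Ier3, 26.7%, 4.52% and 2.37% for Dusp1, and 8.90%, 2.17% and 2.06% for Egr2. The share therefore depended on the marker, most of all in WT GW5074 and KO DMSO. S100a8 UMIs per S100a9 UMI were 1.59, 1.64 and 1.76 in neutrophil-like cells. They were 1.97, 3.67 and 5.85 in monocyte-derived-like and 2.82, 9.76 and 19.9 in resident-like macrophages. The macrophages thus held more S100a8 than neutrophil RNA at its own ratio to their S100a9 would bring, and S100a8 scaling gives the larger share. Which marker gives the nearer share was not tested. With the S100a8-scaled amount taken away, the log2 ratio of WT GW5074 over WT DMSO in monocyte-derived-like macrophages was 0.12 for Egr1, -0.26 for Ier3 and -0.68 for Dusp1, and only Dusp1 of these was still lower by the rule. With the S100a9-scaled amount taken away, the same ratios were -0.0667, -0.37 and -0.73. Among cells with no UMI of S100a8 or S100a9 (458 and 3751 cells), they were -0.44, -0.37 and -0.81. Dusp1 was therefore lower by the same rule under these 3 settings, while Egr1 and Ier3 were not.

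In resident-like macrophages the share scaled to S100a8 was 71.4%, 71.3% and 81.6% for Egr1, and 50.6%, 56.1% and 135% for Ier3. A share above 100% means that the scaled level exceeded the one measured. Scaled to S100a9, the share was 40.3%, 11.96% and 7.23% for Egr1 and 28.6%, 9.41% and 11.99% for Ier3. Subtracting the S100a8-scaled amount gave log2 ratios of WT GW5074 over WT DMSO of -1.07 for Egr1, -1.73 for Ier3, -0.51 for Dusp1 and -0.71 for Zfp36, of which Dusp1 fell short of the rule. Subtracting the S100a9-scaled amount gave -0.51, -1.22, -0.56 and -0.67, and Egr1 and Dusp1 fell short. Without cells holding S100a8 or S100a9 (260 and 1965 left), it was -0.81 for Egr1, -0.65 for Ier3, -0.65 for Dusp1 and -0.59 for Zfp36. Only Dusp1 and Zfp36 passed the rule in those cells. None of the 4 resident-like differences passed it under all 14 alternative settings: Dusp1 also fell short in the cells of cluster 2, led by Car4 and Ear1 (-0.25), and Zfp36 fell short in those of cluster 6, led by Htr2c and Krt19, and stood at 0.0167 after thinning. The part of neutrophil RNA in the macrophage differences was not tested beyond these values.

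**Figure D4:**
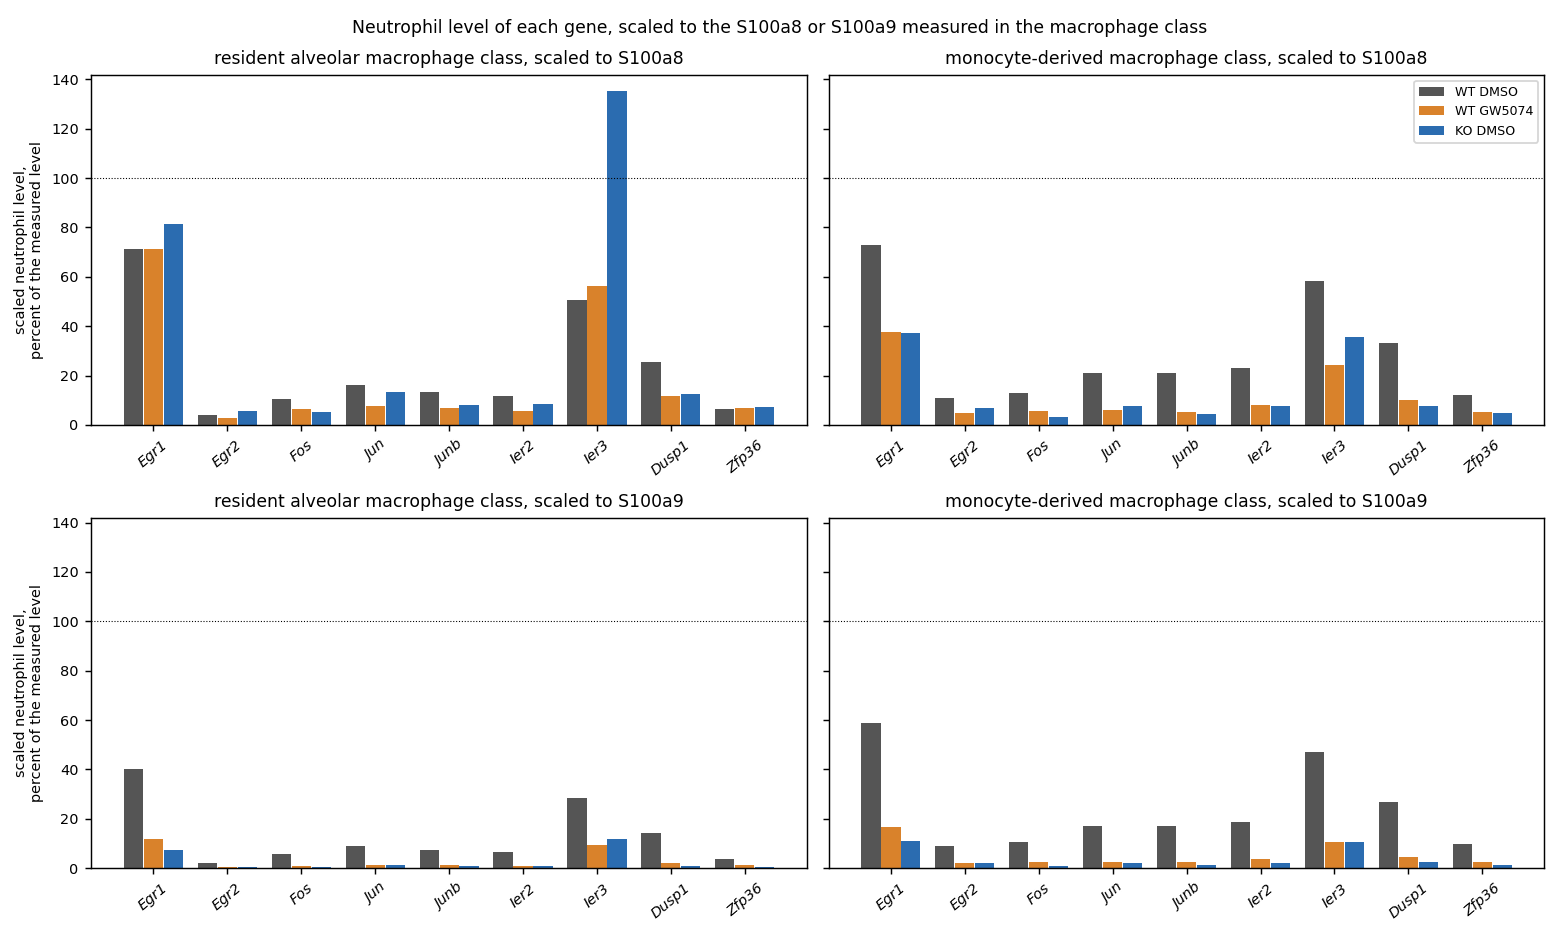
Level of each gene in neutrophil-like cells, scaled to the S100a8 (upper row) or S100a9 (lower row) of the macrophage class, as a percent of the level measured in that class, by library; the dotted line marks 100%. The bar for Ier3 in resident-like macrophages of KO DMSO stands at 135% in the upper row and at 11.99% in the lower.

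Depth and macrophage subsets also differed between libraries. The median cell held 3593, 2370 and 2834 UMIs in the resident-like and 4078, 2835 and 3622.5 in the monocyte-derived-like class, and at 500 UMIs per cell 2 resident-like members, Dusp1 and Junb, were lower in WT GW5074, while Egr1 and Ier3 had too few UMIs to enter. Clustering without the early genes split the resident-like gate mainly into cluster 2 (Car4, Ear1; 43.5%, 30.8% and 31.4% of the gate) and cluster 6 (Htr2c, Krt19; 35.8%, 53.7% and 57.0%). The monocyte-derived-like gate fell mainly into cluster 3 (C1qc, Apoe; 32.1%, 42.6% and 36.5%) and cluster 8 (Mmp12; 29.6%, 30.2% and 37.1%), and 18.3% of it in WT DMSO fell into cluster 9. That cluster was led by S100a9, S100a8, Hdc, Lcn2 and Vcan, and of its 1541 cells 439 were monocyte-derived-like, 200 neutrophil-like and 663 ungated. Within cluster 3, the members lower in WT GW5074 numbered 1, and within cluster 8 none. The share of all genes past the rule was not computed within these clusters or after thinning, so these counts have no background. Dusp1 kept its side of the rule in cluster 3 but not in cluster 8.

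KO DMSO was then compared with WT DMSO. In resident-like macrophages, Egr1, Egr2, Junb and Ier3 were lower in KO DMSO than in WT DMSO and Fos was higher, 4 and 1 of 9. Over all 6573 genes entered, 4.14% were lower and 2.65% higher, and the median log2 ratio was -0.30 for the 9 and -0.03 over all genes. In monocyte-derived-like macrophages, Egr1, Egr2 and Ier3 were lower and none was higher, 3 and 0 of 9, where 3.68% of all genes were lower and 1.41% higher. The medians there were -0.48 and -0.09. In monocyte-derived-like macrophages, Egr1 and Ier3 had log2 ratios of 0.0924 and -0.0726 with the S100a8-scaled neutrophil UMIs taken away, of -0.0114 and 0.0605 with the S100a9-scaled ones taken away, and of -0.30 and 0.17 among cells with no UMI of S100a8 or S100a9. None of these 6 values passed the rule. In resident-like macrophages Egr1 was at -1.52 with the S100a8-scaled UMIs taken away, which passed it, and at -0.25 with the S100a9-scaled ones, which did not. Ier3 was at -1.10 with the S100a9-scaled UMIs taken away, which passed, and had none left after the S100a8-scaled ones in KO DMSO. Among resident-like cells with no UMI of either marker (260 and 1568), Egr1 was at -0.23 and Ier3 at -0.48, both short of the rule. Both comparisons with WT DMSO share that library, so their values stand side by side and are not 2 independent findings.

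Egr2 was lowest in KO DMSO in both macrophage classes. In monocyte-derived-like macrophages it was at 29.7, 34.4 and 15.9 CPM in WT DMSO, WT GW5074 and KO DMSO, and the knockout interval of 13.6 to 18.5 CPM lay below both others. The log2 ratio of KO DMSO over WT DMSO was -0.90 (-1.19 to -0.61), and over WT GW5074 it was -1.11 (-1.37 to -0.86). In resident-like macrophages the ratios were -0.64 (-1.002 to -0.27) and -1.20 (-1.48 to -0.92), though the first missed the rule in 4 of 14 alternative settings. The neutrophil share of Egr2 by either marker was 11.01% or less in every library of both classes. Within cluster 3 Egr2 was at 30.5, 29.4 and 15.4 CPM, and within cluster 8 at 40.1, 45.4 and 19.1 CPM, so the knockout was lowest in both.

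Junb, an AP-1 partner, was at 221, 156 and 128 CPM in resident-like macrophages. The log2 ratio of KO DMSO over WT DMSO was -0.79 (-0.93 to -0.65), and it stayed between -1.13 and -0.68 over all 14 alternative settings. In monocyte-derived-like macrophages Junb was at 338, 258 and 228 CPM, a log2 ratio of -0.57 (-0.65 to -0.49), just short of 1.5-fold. Fos ran the other way. It was at 108, 106 and 186 CPM in resident-like macrophages, a log2 ratio of 0.78 (0.61 to 0.95) for KO DMSO over WT DMSO. In monocyte-derived-like macrophages Fos was at 213, 160 and 259 CPM, with a log2 ratio of 0.28 (0.20 to 0.37).

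KO DMSO and WT GW5074 were also compared directly. In resident-like macrophages 1 of 7 members entered, Egr2, was lower in KO DMSO and 2, Fos and Dusp1, were higher, where 2.52% of all genes were lower and 0.946% higher. The same 1 and 2 genes of 9 were lower and higher in monocyte-derived-like macrophages, where 2.21% and 0.915% of all genes were. Fos had log2 ratios of 0.81 (0.68 to 0.94) and 0.69 (0.62 to 0.77) in the resident-like and monocyte-derived-like classes, and Dusp1 of 0.63 (0.37 to 0.90) and 0.63 (0.48 to 0.78). Fos passed the rule in both classes under all 14 alternative settings, while Dusp1 fell short in 5 of them in the resident-like and in 3 in the monocyte-derived-like class.

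Ratios of 2 genes within a library need no scaling by its total. Fos UMIs per Junb UMI were 0.490, 0.678 and 1.45 in resident-like macrophages and 0.629, 0.622 and 1.14 in monocyte-derived-like macrophages. The ratio was 0.613, 0.588 and 1.46 in cDC1-like cells and 0.389, 0.650 and 0.895 in neutrophil-like cells. It was 0.257, 0.127 and 0.412 in cDC2-like cells, 0.136, 0.105 and 0.163 in migratory dendritic-like cells, and 0.184, 0.143 and 0.258 in T-like cells. KO DMSO thus had the highest ratio in 7 of 7 classes, and its interval lay above both others in 3, the macrophage classes and cDC1-like cells. The 7 classes share 1 library each time and are not replicates.

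Egr2 UMIs per Egr1 UMI separated WT GW5074 instead. The ratio was 1.30, 4.05 and 1.55 in resident-like macrophages and 0.490, 1.21 and 0.574 in monocyte-derived-like macrophages, with the WT GW5074 interval above both others in these 2 classes. It was 0.115, 0.357 and 0.200 in migratory dendritic-like cells and 0.0739, 0.156 and 0.106 in neutrophil-like cells. WT GW5074 was highest in 7 of 7 classes. The scaled neutrophil share was large for Egr1 and small for Egr2 in macrophages, and its part in this ratio was not tested.

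**Figure D5:**
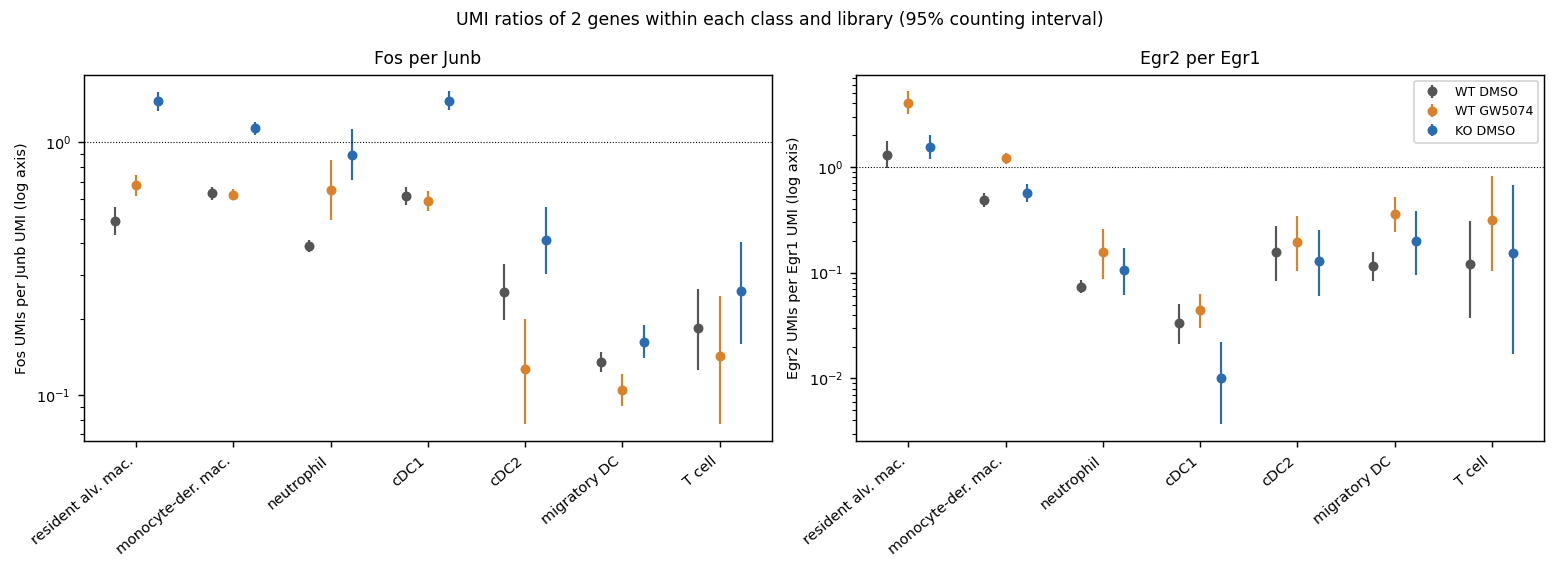
UMIs of Fos per UMI of Junb, and of Egr2 per UMI of Egr1, in 7 cell classes and 3 libraries, with 95% intervals on log axes. KO DMSO is highest for Fos per Junb and WT GW5074 for Egr2 per Egr1 in all 7 classes.

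Neutrophil-like cells had lower levels of most members in WT GW5074. Egr1, Jun, Junb, Ier2, Ier3 and Dusp1, 6 of 10, were lower than in WT DMSO and none was higher, where 7.58% of all genes were lower and 7.05% higher. Dusp1 was at 652, 235 and 444 CPM in WT DMSO, WT GW5074 and KO DMSO, with a log2 ratio of -1.47 (-1.94 to -1.03) for GW5074. Junb was at 1571, 750.2 and 856 CPM, low in both of the other libraries. In KO DMSO over WT DMSO, 1 of 10, Junb, was lower (-0.88) and 1, Ier3, was higher (0.60), against 8.23% and 5.88% of all genes. Between KO DMSO and WT GW5074, 0 of 8 members entered were lower and 7 were higher, where 10.1% and 15.0% of all 1438 genes were. Ier3 and Jun were farthest apart, with log2 ratios of 1.64 (1.29 to 1.99) and 1.48 (1.01 to 1.98). The 148 neutrophil-like cells of WT GW5074 were also less pure by markers: the neutrophil list summed to 49085, 23351 and 36261 CPM and the monocyte-derived macrophage list to 1912, 3932 and 1655 CPM. Cluster 0 held 90.5%, 62.8% and 89.95% of the gate. Among the gated cells of cluster 0 (2837, 93 and 197), the 10 genes summed to 8089, 6374 and 8480 CPM. Junb and Dusp1 were lower in WT GW5074 there and Egr2 was higher, 2 and 1 of 10, so the other 4 fell short of the rule. The higher Egr2 rested on 13 UMIs in WT GW5074. The share of all genes past the rule was not computed within cluster 0. The counts of members there, for all comparisons, therefore have no background to be read against. Egr1 was at 1284 and 1170 CPM in cluster 0, a log2 ratio of -0.13 (-0.50 to 0.21), and Dusp1 at 827 and 389.9 CPM, a ratio of -1.08 (-1.75 to -0.49). For KO DMSO over WT DMSO, 1 of 10, Junb, was lower there (-0.88) and 2, Jun and Ier3, were higher (0.60 and 0.66), and for KO DMSO over WT GW5074 0 of 8 were lower and 2, the same Jun and Ier3, higher (1.05 and 1.201).

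Dendritic-like cells were compared in the same way. In cDC1-like cells, Ier3 alone was lower in WT GW5074 (48.1 and 27.2 CPM), 1 of 9, and none was higher, where 1.48% of all genes were lower and 3.81% higher. In KO DMSO, 1 of 9, Ier3, was lower (20.1 CPM, log2 ratio -1.26) and 1, Fos, higher (316 and 535 CPM, 0.76, 0.64 to 0.88), against 9.11% and 4.01% of all genes. The neutrophil share of Ier3 in cDC1-like cells of WT DMSO, WT GW5074 and KO DMSO was 42.8%, 14.1% and 29.8% scaled to S100a8. Scaled to S100a9, it was 38.4%, 10.7% and 18.6%. The part of neutrophil RNA in the lower Ier3 of this class was not tested. Egr1 in cDC1-like cells, where its neutrophil share scaled to S100a8 was 8.71%, 1.70% and 1.39%, did not differ by 1.5-fold between any of the libraries. In cDC2-like cells, Fos was lower in WT GW5074 (158 and 71.6 CPM) and Jun higher (179 and 313 CPM), 1 and 1 of 7, with a background of 4.83% and 6.32%. Jun was higher there in KO DMSO as well (311 CPM, 0.79) and Ier3 lower (78.8 and 41.6 CPM, -0.92), 1 and 1 of 8, with 8.37% and 7.01% of all genes. The cDC2-like sums rest on 135 to 162 cells.

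In migratory dendritic-like cells, which express Ccr7 and move to lymph nodes, Egr1, Ier3 and Dusp1 were lower in WT GW5074, 3 of 8, and none was higher, against 2.85% and 4.21% of all genes. Egr1, Ier2 and Ier3 were lower in KO DMSO, 3 of 8, and none was higher, against 11.0% and 3.63%. Egr1 was at 40.2, 20.5 and 11.9 CPM, with a log2 ratio of -1.75 (-2.19 to -1.34) for the knockout. Ier3 was at 42.6, 17.6 and 14.7 CPM, and the neutrophil share scaled to S100a8 was 54.0%, 20.9% and 25.1% for it and 54.3%, 21.5% and 18.0% for Egr1. Scaled to S100a9, it was 51.9%, 14.0% and 12.1% for Ier3 and 52.1%, 14.4% and 8.67% for Egr1. The class was made of different clusters: cluster 13 (Mylk) held 36.5% of it in WT DMSO and 27 cells in WT GW5074, and cluster 4 held 34.0%, 52.6% and 56.4%. Within cluster 4 Dusp1 was at 188, 164 and 171 CPM and within cluster 14 at 159, 166 and 148 CPM, while cluster 13 of WT DMSO was at 328.5 CPM. In cluster 15 (112, 247 and 106 cells) it was at 125, 66.4 and 119.6 CPM. Dusp1 was thus close between libraries in clusters 4 and 14, but lower in WT GW5074 in cluster 15. Egr1 was at 29.3, 19.3 and 7.01 CPM within cluster 4, and Ier3 at 29.3, 14.0 and 8.33 CPM, in the same order as in the whole class.

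T-like cells had low sums in KO DMSO. Egr1, Jun, Junb, Ier2, Ier3 and Dusp1, 6 of 8, were lower than in WT DMSO and none was higher, against 9.78% and 4.63% of all genes. Ier2 and Dusp1 were lower in WT GW5074, 2 of 7, and none was higher, against 2.79% and 4.22%. Dusp1 was at 119, 40.4 and 27.6 CPM, with log2 ratios of -1.56 (-2.54 to -0.69) and -2.11 (-3.13 to -1.22). Ier2 was at 146, 90.2 and 57.6 CPM, so KO DMSO was lowest for both. S100a8 was at 1047, 215 and 122 CPM in this class, and the neutrophil share scaled to it was 21.5%, 10.2% and 10.2% for Dusp1 and 53.2%, 17.7% and 19.0% for Egr1. Scaled to S100a9, it was 19.5%, 7.98% and 5.42% for Dusp1 and 48.2%, 13.8% and 10.1% for Egr1. After thinning, 1.44%, 1.04% and 0 of 297 T-like cells held at least 3 of the genes, and the last allows up to 1.23% by the exact interval.

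Between the wild-type libraries, few upstream, ERK feedback or further early genes passed the rule, while more glucocorticoid-induced and NF-kB-induced genes did. Over all genes entered, 0.683% were lower and 1.25% higher in resident-like macrophages. In monocyte-derived-like ones these shares were 0.799% and 0.298%. Of 18 kinases and factors upstream of the early genes entered, 0 were lower or higher in WT GW5074 in either macrophage class. Of the ERK feedback genes, 0 of 2 entered in resident-like and 0 of 4 in monocyte-derived-like macrophages differed. Of further early genes, 0 of 12 were lower or higher in resident-like macrophages, and 1 of 14, the factor Klf2 (29.0 and 14.1 CPM, -1.04), was lower in monocyte-derived-like ones. Glucocorticoid-induced genes included more lower genes, 3 of 10 and 5 of 10 in the resident-like and monocyte-derived-like classes with none higher. Fkbp5, a cochaperone of the glucocorticoid receptor, was at 122 and 43.2 CPM in monocyte-derived-like macrophages (-1.50), and at 113 and 62.9 CPM in resident-like ones (-0.85). Of NF-kB-induced genes, 4 of 12 were lower in monocyte-derived-like macrophages, the chemokine Cxcl2 (36.8 and 14.7 CPM, -1.33) and the inhibitor Tnfaip3 (43.8 and 22.5 CPM, -0.96) most, and 0 of 11 differed in resident-like ones. In neutrophil-like cells Fkbp5 was at 405 CPM in WT DMSO and 60.2 CPM in WT GW5074. The neutrophil share of Fkbp5, Cxcl2 and Tnfaip3 in macrophages was not computed.

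For KO DMSO over WT DMSO, 2 of 9 heat shock genes entered, Hspa8 and Hsph1, were higher in each macrophage class, as Fos was in the resident-like one, and Bag3 was lower in the resident-like class. Such genes respond to stress, cell handling included. Hspa8, a constitutive chaperone, was at 626 and 1185 CPM in resident-like (0.92) and at 645 and 1174 CPM in monocyte-derived-like macrophages (0.86). Hsph1 had log2 ratios of 0.73 and 0.89, and Bag3 of -0.60 and -0.21. Their part in the Fos difference was not tested. Over all genes entered for KO DMSO over WT DMSO, 4.14% were lower and 2.65% higher in resident-like macrophages. In monocyte-derived-like ones these shares were 3.68% and 1.41%. Cxcl2 was higher in KO DMSO in both classes (1.11 and 0.65) and the cytokine Il1b lower (-0.96 and -0.70), and the cytokine Tnf was higher in the monocyte-derived-like class (0.72). They were the NF-kB-induced genes that passed, of 10 entered in the resident-like and 14 in the monocyte-derived-like class. Of ERK feedback genes, 1 of 4 entered in each class differed: Phlda1 was higher in resident-like macrophages (9.20 and 24.8 CPM, 1.43), and the ERK phosphatase Dusp6 was lower in monocyte-derived-like ones (29.6 and 18.9 CPM, -0.65). Of upstream kinases and factors, 1 of 18, the p38 target kinase Mapkapk2, was lower in resident-like macrophages (134 and 85.7 CPM, -0.65), and 0 of 18 differed in monocyte-derived-like ones. Of further early genes, 1 of 12, the cytokine signalling inhibitor Socs3, was lower in resident-like macrophages (-0.77), and 1 of 14, Klf2, in monocyte-derived-like ones (-1.03). Of glucocorticoid-induced genes, 0 of 10 differed in resident-like macrophages and 1 of 10, the factor Klf9, was lower in monocyte-derived-like ones (-0.62). Of the ARE-binding and decay genes related to Zfp36 in function, 0 of 7 were lower or higher in either macrophage class in the 3 comparisons.

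Across 24 sums of class and library (9 classes, at least 100 cells each), the genes most like the members' mean among 3704 genes were Cass4 (Pearson r 0.956), Med12l (0.912), Tet2 (0.909), Cpeb2 (0.908) and Lyst (0.899). Among pairs of members, Egr1 and Ier2 were most alike (0.902) and Egr2 and Zfp36 least (0.171). The points share libraries and depth, and neutrophil-like sums stand far above the rest, so these are descriptions. Monocyte-, B- and plasmacytoid-like classes were too small or too mixed to compare: their summed levels were 2275, 1021 and 1090 CPM, 1380, 1094 and 1016 CPM, and 645, 570 and 709 CPM in WT DMSO, WT GW5074 and KO DMSO.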

How the data were processed

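Raw UMI counts per gene and cell barcode, as deposited, were used for all 3 libraries. The mm10 build and Cell Ranger 2.1.1 are named, per the submitters' processing notes. Every deposited barcode held at least 500 UMIs. One label names 10x Genomics and the protocol a SeekOne chip.

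Cells with fewer than 200 genes, or with mitochondrial UMIs above 20%, were left out. A cell joined a class when at least 3 of its markers were detected and that class's share of markers detected led the next by 10 percentage points. Cells with no leading programme stayed ungated. No doublet caller was run, and doublets may remain in the classes. Gate thresholds were set after the markers, not the members, had been seen. The members, markers and gene lists were chosen with earlier results of these data known. Counts were summed per class and library and given as CPM, with exact Poisson, Clopper-Pearson and conditional binomial intervals. The intervals do not cover animals, cells or library runs. The named genes are all 10 members, up to 2 highest and 2 lowest of each list per macrophage class and comparison, and the 5 genes most alike in pattern. Only those past the rule are printed. The ratio code recovered known folds in simulated data. The simulation drew counting error only, as the intervals assume, and held no spread between cells, animals, pools or library runs. Python 3.11.15, numpy 2.4.6, scipy 1.17.1, pandas 2.3.3, scanpy 1.11.5 and matplotlib 3.10.9 were used.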

Additional observations from a re-analysis of the deposited data

Results flagged for a closer look

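Jun and Ier3 stood in opposite directions in different cell classes under the same contrast. For WT GW5074 over WT DMSO, Jun had a log2 ratio of -0.95 in neutrophil-like cells and 0.81 in cDC2-like cells. Among the neutrophil-like cells of cluster 0 alone, the Jun ratio was -0.45 (-1.03 to 0.08), short of the rule. For KO DMSO over WT DMSO, Jun had a ratio of 0.79 in cDC2-like cells and -0.89 in T-like cells. Ier3 was higher in KO DMSO in neutrophil-like cells alone, at 0.60. It was lower in the other 6 classes, at -1.40 in resident-like macrophages, -0.69 in monocyte-derived-like macrophages, -1.26 in cDC1-like, -0.92 in cDC2-like, -1.53 in migratory dendritic-like and -1.12 in T-like cells. The monocyte-derived-like value was above 0 in 5 of 14 alternative settings, up to 0.24, and the resident-like one fell short of 1.5-fold or of enough UMIs in 2 of the 13 that gave a value. The neutrophil share of Ier3 in the other 6 classes, in the order given, follows. Scaled to S100a8, it was 50.6%, 58.2%, 42.8%, 11.7%, 54.0% and 57.5% in WT DMSO. In KO DMSO it was 135%, 35.8%, 29.8%, 12.9%, 25.1% and 30.5%. Scaled to S100a9, it was 28.6%, 47.1%, 38.4%, 9.53%, 51.9% and 52.1% in WT DMSO. In KO DMSO that was 11.99%, 10.8%, 18.6%, 5.67%, 12.1% and 16.2%. The part of neutrophil RNA in these Ier3 values was not tested. The differences between classes were not tested, since each class has 1 library per group.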

How the results depend on the processing

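The counts of members lower or higher in the macrophage classes were recomputed under 14 alternatives, of which 10 were planned and 4 (neutrophil UMIs subtracted at the S100a8 or the S100a9 ratio, each gate's leading cluster, each gate's second cluster) were added after the data were seen. A stricter gate, median ratio scaling, totals without mitochondrial genes, S100a8 and S100a9, and leaving out the 10% deepest cells moved none of the 12 counts beyond 1.5 times.

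For WT GW5074 over WT DMSO, the lower resident-like members numbered 4, but 2 after thinning, in cells without S100a8 and S100a9, with S100a9-scaled UMIs subtracted and in the second cluster, and 7 over all kept cells. The higher ones numbered 0, but 1 under a stricter cell filter and with S100a9-scaled UMIs subtracted. The lower monocyte-derived-like members numbered 3, but 1 by clusters named from markers, with S100a8- or S100a9-scaled UMIs subtracted and in the leading cluster, 0 in the second, and 7 over all kept cells. For KO DMSO over WT DMSO, the lower resident-like members numbered 4, but 1 after thinning and in cells without S100a8 and S100a9 and 2 in the second cluster, and the higher ones numbered 1, but 2 in those cells and in the leading cluster and 0 over all kept cells. The lower monocyte-derived-like members numbered 3, but 5 after thinning, 6 over all kept cells, and 1 by named clusters, in cells without S100a8 and S100a9, with either subtraction and in either cluster. For KO DMSO over WT GW5074, the higher members numbered 2 in each class, but 1 over all kept cells and when each cell's CPM was averaged in both, 1 by named clusters and in the second cluster in the resident-like class, and 1 after thinning in the monocyte-derived-like class. Over all kept cells, 6.85% of all genes were lower and 3.27% higher for WT GW5074 over WT DMSO. For KO DMSO over WT DMSO these shares were 10.3% and 3.98%, and for KO DMSO over WT GW5074 2.16% and 1.12%. Under the other alternatives the share of all genes was not computed, so their counts have no background. The member counts need not be of the same genes, and the cause of their shifts was not tested. Thinning leaves fewer UMIs and single clusters leave fewer cells, and the part of this in the counts was not tested either.

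Reversed log2 ratios were Ier3 for KO DMSO over WT DMSO in monocyte-derived-like macrophages (0.0017 by named clusters, 0.17 in cells without S100a8 and S100a9, 0.0605 with S100a9-scaled UMIs subtracted, 0.0894 in the leading and 0.24 in the second cluster), Zfp36 for GW5074 in resident-like macrophages (0.0167 after thinning), and Egr1 in monocyte-derived-like macrophages with S100a8-scaled UMIs subtracted (0.12 for GW5074, 0.0924 for the knockout). Lower Junb (resident-like, KO DMSO over WT DMSO), lower Egr2 (monocyte-derived-like, KO DMSO over WT DMSO) and, in both classes for KO DMSO over WT GW5074, lower Egr2 and higher Fos kept their direction and their side of the rule in all 14. Lower Egr2 in resident-like macrophages of KO DMSO over WT DMSO fell short of the rule in 4 of 14, with ratios from -0.95 to -0.47. No paired analysis was possible because each group is 1 library. Depth limited Egr3 most, and the small neutrophil-like classes of WT GW5074 and KO DMSO.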
